A study of Mus musculus with 6 samples.

Results

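Lipoprotein lipase (Lpl), hepatic lipase (Lipc), their inhibitors Angptl4 and Angptl8, the remodelling proteins Lcat and Pltp and the uptake receptors Scarb1, Lrp1 and Vldlr were followed in liver and adrenal gland of mice lacking Abcg8. These 9 genes were taken by name from a table of 33639 gene symbols. Abcg8 joins Abcg5 to form the pump that sends plant sterols out into bile and the gut. All mice carried the loss of Abcg8 in the whole body, and wild-type mice are not part of the design, so each comparison is between diets within the knockout. Per the labels the mice were male and were kept until weaning on a low sterol diet with 0.005% ezetimibe, which blocks intestinal sterol uptake. They were then given a low sitosterol, a high sitosterol, an ergosterol or a stigmasterol diet for 12 weeks. Liver was taken on all 4 diets and adrenal gland on the 2 sitosterol diets, from 1 mouse per group, which gave 4 liver and 2 adrenal libraries. For ages at sampling and sterol doses, the sources used here gave no value. The question named for the series was the effect of diets rich in non-cholesterol sterols on gene expression.

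Triglyceride-rich lipoproteins are unloaded at the vessel wall by lipoprotein lipase, which is made mainly in fat, muscle and macrophages and little in adult liver. Angptl4 and Angptl8 inhibit that enzyme. Hepatic lipase, made by hepatocytes, acts on remnants and on high-density lipoprotein (HDL), Lcat esterifies the cholesterol of HDL, and Pltp moves phospholipid onto HDL. Scarb1 takes up cholesteryl ester from HDL in liver and in steroid-making adrenal cells, and Lrp1 and Vldlr take up remnants and very-low-density lipoprotein.

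Library totals lay between 41546507 and 50573364 estimated counts. A count of 0 therefore allows up to 0.0593 to 0.0722 CPM, the value of 3 counts after division by the total. CPM values below are further scaled within each tissue by TMM factors, which correct for a few genes taking a large share of a library, and TPM is a share of transcripts after correction for their length. No difference has a replicate check, since each group is 1 library. A gene is called higher or lower here where 2 libraries differ by 2-fold or more and the exact 95% interval of the ratio, which covers counting error only, excludes equality. The call compares libraries and not diets. In whole tissue, fewer cells of a type and less RNA per cell cannot be told apart. The factor of the stigmasterol liver was 1.35 against 0.83 in the low sitosterol liver, and scaling by library totals instead moved the median log2 ratio of all genes by 0.69 between them, by 0.20 for high sitosterol and by 0.16 for ergosterol. Hepatocyte markers summed to 55850.2 to 84793 TPM over the livers and to 31.7 and 37.6 over the adrenals, and adrenal cortex markers to 50310 and 51502 TPM in the adrenals, so both tissue labels were borne out. The low sitosterol liver also held adrenal cortex markers, at a median of 0.0939% of their level in the low sitosterol adrenal. The Y-linked genes Eif2s3y and Ddx3y ranged from 1188 to 2201 counts per liver and from 0 to 3 per adrenal, which goes against the male label of both adrenal libraries. Counts of Abcg8 ran from 51 in the low sitosterol liver to 788 in the stigmasterol liver. Which part was deleted is not given in the sources used here, so these counts do not check the knockout.

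All 9 genes are protein-coding in GENCODE M21 (GRCm38). Lpl lies at chr8:68880491-68907448 on the plus strand, Lipc at chr9:70798128-70952226 (minus), Angptl4 at chr17:33773750-33781830 (minus) and Angptl8 at chr9:21835510-21837347 (plus). Lcat lies at chr8:105939551-105943382 (minus), Pltp at chr2:164839518-164857711 (minus), Scarb1 at chr5:125277087-125341094 (minus), Lrp1 at chr10:127538161-127621148 (minus) and Vldlr at chr19:27216484-27254231 (plus). Strand is not marked by the kit, which bears on genes that overlap. Angptl8 lies whole, over 1838 bases, inside Dock6 on the other strand, and Dock6 had at most 2594 counts in any library. Pltp shares 1515 bases with Ctsa on the other strand, which had up to 11666 counts, and Lcat and Lrp1 have antisense partners (3832 and 1323 shared bases). Reads of these pairs cannot be told apart with certainty.

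The promoters of 4 genes whose liver level differed 2-fold or more between diets are shown, since a reader may wish to set their sequence beside the patterns below. They are the 250 bases upstream of the RefSeq start (GRCm38.p6), read 5′ to 3′ on the strand of the gene, for Angptl8 (chr9:21835260-21835509), Pltp (chr2:164857709-164857958), both starts of Lipc (chr9:70952222-70952471 and chr9:70934809-70935058) and the first start of Vldlr (chr19:27216234-27216483). RefSeq windows were matched for 6 of the 9 genes. Capitals mark the CCAAT box, a TATA box spelled TATAAA, an E-box spelled CACGTG or a nuclear receptor half-site spelled AGGTCA, searched on both strands.
Angptl8: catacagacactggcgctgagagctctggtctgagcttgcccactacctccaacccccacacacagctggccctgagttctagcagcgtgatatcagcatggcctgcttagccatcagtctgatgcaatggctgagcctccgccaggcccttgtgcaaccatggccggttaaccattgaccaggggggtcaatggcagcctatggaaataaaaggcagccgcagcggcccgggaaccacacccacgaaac
Pltp: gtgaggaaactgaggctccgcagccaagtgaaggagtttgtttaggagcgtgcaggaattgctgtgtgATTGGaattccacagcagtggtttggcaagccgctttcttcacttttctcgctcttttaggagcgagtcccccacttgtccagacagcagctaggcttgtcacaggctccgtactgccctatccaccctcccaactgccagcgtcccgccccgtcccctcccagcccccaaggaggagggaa
Lipc, first start: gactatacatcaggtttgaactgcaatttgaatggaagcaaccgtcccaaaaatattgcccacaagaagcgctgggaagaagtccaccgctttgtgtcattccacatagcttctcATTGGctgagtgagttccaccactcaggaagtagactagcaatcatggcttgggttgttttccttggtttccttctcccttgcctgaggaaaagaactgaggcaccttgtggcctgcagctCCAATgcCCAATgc
Lipc, second start: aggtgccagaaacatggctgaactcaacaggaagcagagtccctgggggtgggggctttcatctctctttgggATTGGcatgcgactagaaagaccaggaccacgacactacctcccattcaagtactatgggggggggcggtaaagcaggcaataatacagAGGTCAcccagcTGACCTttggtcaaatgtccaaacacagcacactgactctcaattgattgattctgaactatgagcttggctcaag
Vldlr: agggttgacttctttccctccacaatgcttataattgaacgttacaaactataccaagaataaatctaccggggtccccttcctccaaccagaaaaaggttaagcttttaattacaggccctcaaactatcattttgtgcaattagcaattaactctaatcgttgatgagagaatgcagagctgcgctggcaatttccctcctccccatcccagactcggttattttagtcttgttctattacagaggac

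The second Lipc window held AGGTCA on each strand, 88 and 76 bases before the start, and was the only 1 of 8 windows of these genes with that motif, which 14.0% of all 32851 windows hold. The CCAAT box was in 5 of 8 windows against 33.8% of all. The TATA box and the E-box, held by 12.4% and 6.02% of all windows, were in 0 of 8, and so were direct repeats of the half-site with a spacer of 1 base (0.0335% of all) or 4 bases (0.0152%). These are matches of letters only and show no binding.

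All 9 genes passed the filter of 1 CPM in at least 1 liver. Lpl differed most between the livers. Lpl stood at 5.44 TPM on low sitosterol, 66.4 on high sitosterol, 36.4 on ergosterol and 178 on stigmasterol. The low sitosterol liver was thus lowest and the stigmasterol liver highest, and all 3 of the other livers lay above the low sitosterol liver. In counts these were 1040, 11924, 5760 and 30002, or 25.4, 257, 129 and 440.0 scaled CPM. The highest was 17.3-fold the lowest, against 12.2-fold for Angptl8, 11.4-fold for Vldlr, 5.85-fold for Pltp, 4.68-fold for Lipc and 1.57-fold to 1.99-fold for Angptl4, Lcat, Lrp1 and Scarb1. Among the 9 genes Lpl ranked 8th by TPM in the low sitosterol liver and 3rd in the stigmasterol liver, a move from the 82.5 to the 97.8 percentile of all genes.

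**Figure D1:**
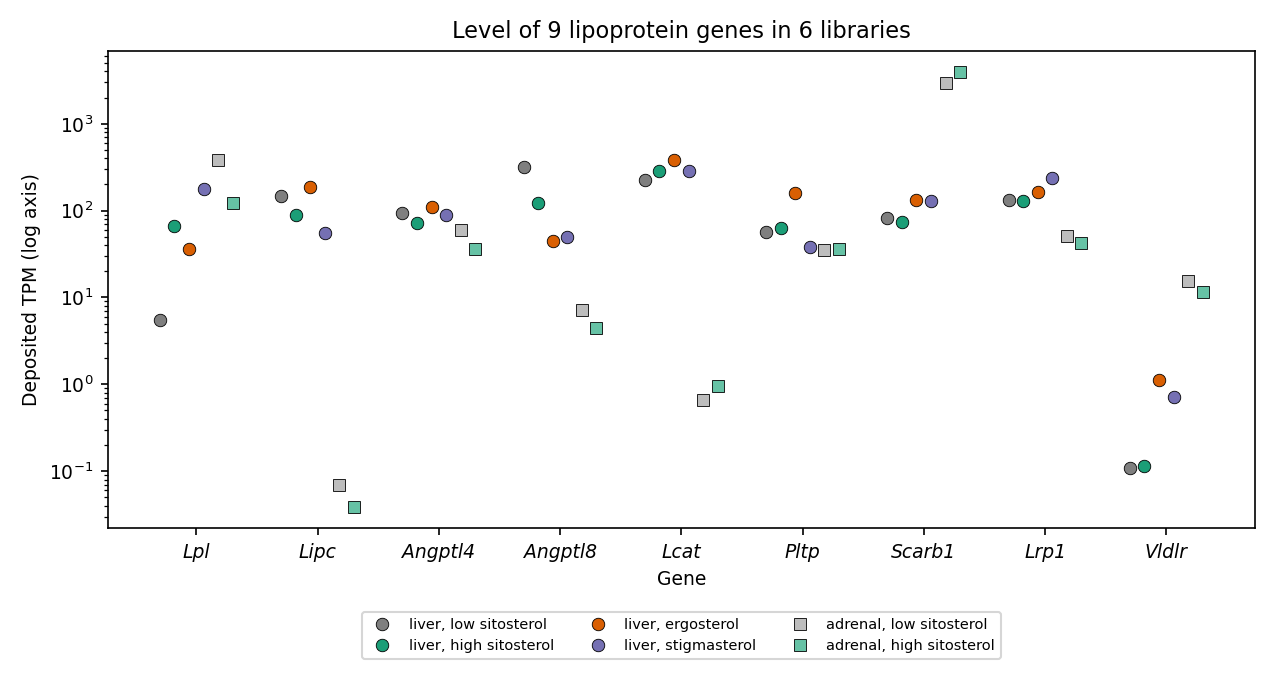
Level of each of the 9 genes in the 6 libraries, in TPM on a log axis, with 1 point per library. Lpl spans 5.44 to 178 TPM over the 4 livers, Scarb1 lies at 2958 and 3898 TPM in adrenal against 73.1 to 134 in liver, and Lipc and Lcat lie under 1 TPM in both adrenals.

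The high and low sitosterol livers differ in the amount of sitosterol fed. Lpl was 10.1-fold higher (log2 ratio 3.34, interval 3.25 to 3.43). Angptl8, which blocks Lpl, was 3.16-fold lower (−1.66, −1.71 to −1.61), and Vldlr was called 2.08-fold lower (−1.06, −1.89 to −0.30) on 22 against 41 counts. In all, 1 of the 9 genes was called higher and 2 lower, where 8.67% of the 13378 genes tested were called higher and 4.3% lower. The median log2 ratio was −0.37 over the 9 genes and −0.05 over all genes. The Vldlr call was lost on library totals (−0.87) and its ratio turned to 0.04 on the log2(TPM + 0.1) scale. The other 6 genes lay between −0.88 (Lipc) and 0.08 (Lcat). On library totals, 78.4% of all calls were higher instead of 66.9%.

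The ergosterol liver was set beside that on low sitosterol, and 4 of the 9 genes passed the call. Lpl was 5.09-fold higher (2.35, 2.25 to 2.44), Vldlr 5.37-fold higher (2.43, 1.96 to 2.95) and Pltp 2.19-fold higher (1.13, 1.08 to 1.18), while Angptl8 was 9.49-fold lower (−3.25, −3.33 to −3.16). That is 3 of 9 genes higher and 1 lower, where 6.05% and 5.81% of all tested genes were. Of the 3, Vldlr passed the 1 CPM filter only through the ergosterol and stigmasterol livers, in which it is high. The median was 0.37 over the 9 genes and 0.02 over all. Over all genes 809 were higher and 777 lower, which became 1139 and 610 on library totals and 1622 and 395 on the log2(TPM + 0.1) scale. The other 5 genes lay between −0.19 (Lipc) and 0.61 (Lrp1), with Lipc and Angptl4 (−0.17) at 0.36 and 0.23 on the TPM scale.

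In the stigmasterol liver 5 of the 9 genes passed the call against low sitosterol. Lpl was 17.3-fold higher (4.11, 4.03 to 4.20) and Vldlr 2.42-fold higher (1.27, 0.78 to 1.81). Angptl8 was 12.2-fold lower (−3.61, −3.69 to −3.53), Lipc 4.68-fold lower (−2.23, −2.28 to −2.17) and Pltp 2.67-fold lower (−1.42, −1.49 to −1.35). So 2 of 9 were higher and 3 lower, where 21.7% and 7.79% of all tested genes were. Of the 2, Vldlr passed the 1 CPM filter only through the ergosterol and stigmasterol livers, in which it is high. The median was −0.59 over the 9 genes and 0.08 over all. Pltp was at −0.73 on library totals and −0.55 on the log2(TPM + 0.1) scale, which ends its call. Angptl4 (−1.0, −1.04 to −0.95) lay just short of 2-fold. It was called lower with DESeq2 factors (−1.04), but was at −0.30 on library totals and −0.06 on the log2(TPM + 0.1) scale. Lcat (−0.59) and Scarb1 (−0.28) turned to 0.11 and 0.42 on library totals, so no direction can be given for them. Among all genes 73.6% of calls were higher, or 92.9% on library totals. These 3 liver comparisons share the low sitosterol library, so a value that is high or low in it moves all of them.

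**Figure D2:**
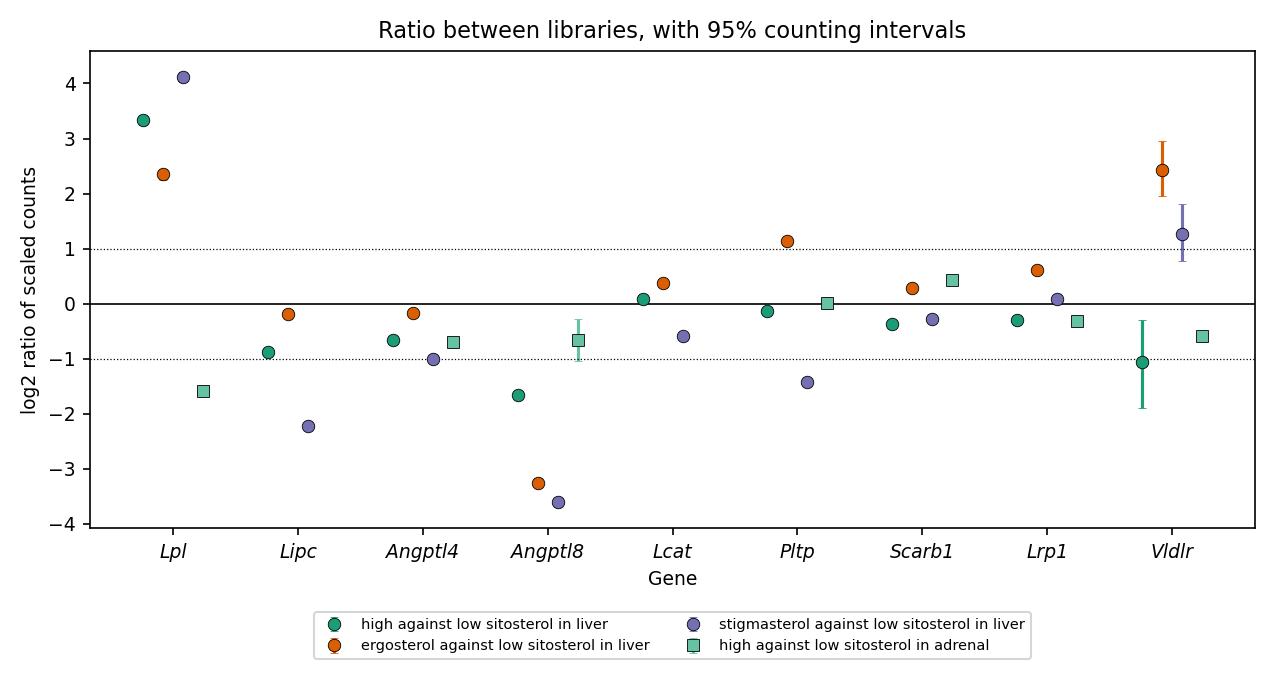
Log2 ratio of each gene with its exact 95% interval of counting error, in the 3 liver comparisons and the adrenal comparison against low sitosterol. Dotted lines mark 2-fold. Lpl lies above the upper line in each liver comparison (3.34, 2.35 and 4.11) and below the lower line in adrenal (−1.58), and Angptl8 lies below the lower line in each liver comparison.

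Macrophages are a known source of Lpl, and their markers also differed between the livers. The 10 macrophage markers summed to 169 TPM on low sitosterol, 623 on high sitosterol, 328 on ergosterol and 617 on stigmasterol, and livers are given in this order below. Against low sitosterol, 9 of 10 were called higher and 1 lower on high sitosterol (median 1.46), 3 and 0 on ergosterol (0.76), and 4 and 3 on stigmasterol (0.5). Cd68 was at 2.36, 0.80 and 2.03. The 3 lower on stigmasterol were Timd4 (−3.8), Clec4f (−1.72) and Vsig4 (−1.19). Timd4 (14 against 122 counts) was under 1 CPM in the stigmasterol liver and passed the filter only through livers in which it is higher. Of all tested genes 8.67% were higher and 4.3% lower on high sitosterol, 6.05% and 5.81% on ergosterol, and 21.7% and 7.79% on stigmasterol. The 8 markers of lipid-associated macrophages summed to 889, 540.3, 299 and 1640.5 TPM, of which Fabp5 alone made up 798 in the low sitosterol liver. Of these 8, 5 were higher and 1 lower on high sitosterol (median 2.77), 3 and 1 on ergosterol (−0.22), and 6 and 1 on stigmasterol (4.16). The 3 higher on ergosterol were Gpnmb, Mmp12 (49 against 15 counts) and Itgax (38 against 15). These 3 were under 1 CPM in the low sitosterol liver and passed the filter only through livers in which they are higher. Gpnmb and Itgax were under 1 CPM on ergosterol as well. Gpnmb, a glycoprotein of lipid-loaded macrophages, was at 7.56, 1.57 and 8.37, on 957, 14 and 2404 counts against 4 in the low sitosterol liver (interval on ergosterol 0.01 to 3.75), and Trem2 at 3.0, 0.30 and 4.29. Lpl came to 3.21%, 10.7%, 11.1% and 28.9% of the summed macrophage marker TPM, a ratio taken after the values were seen. The part of these cells in the Lpl values was not tested.

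Fat tissue is another source of Lpl. The 8 adipocyte markers summed to 18.7, 24.8, 81.3 and 155 TPM. Lep, Retn and Ucp1 were at 0 counts in the 3 livers with the higher Lpl, and Adipoq, the hormone that defines adipocytes, had 28 counts in the low sitosterol liver and 5, 1 and 3 in the others. The markers that made up the sums were Fabp4 (74.7 TPM in the stigmasterol liver), Cidec and Cfd. Cfd was 14.2-fold and Cidec 2.89-fold higher on ergosterol, and Cidec was 11.2-fold and Fabp4 3.77-fold higher on stigmasterol, where Cfd was 4.56-fold lower. The part of fat cells in the Lpl values was not tested. Muscle markers summed to at most 0.435 TPM in any liver. At the share of adrenal cortex RNA given above, the low sitosterol liver would hold 0.362 TPM of Lpl from adrenal gland, of 5.44 measured.

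**Figure D3:**
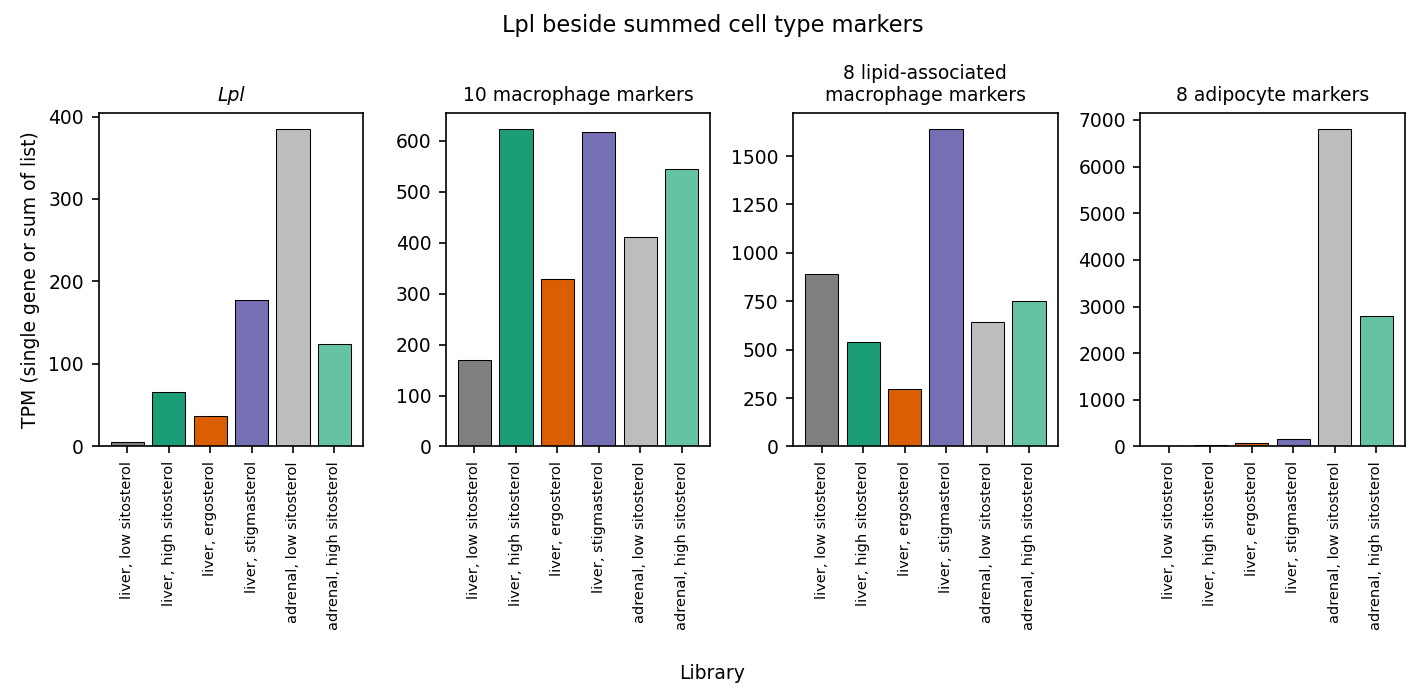
Bars from 0 of Lpl and of the summed macrophage, lipid-associated macrophage and adipocyte markers in each library, in TPM. In the livers Lpl (5.44 to 178) and the macrophage sum (169 to 623) are both lowest on low sitosterol. The lipid-associated macrophage sum is lowest on ergosterol (299) and stands at 889 on low sitosterol. The adrenals hold 6807 and 2795 TPM of adipocyte markers.

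Hepatic lipase (Lipc), secreted by hepatocytes, had 9236, 5685, 8785 and 3287 counts, or 226, 123, 197 and 48.2 scaled CPM. The stigmasterol liver was lowest and the low sitosterol and ergosterol livers highest. Hepatocyte markers had 0 of 10 called in the high sitosterol liver, 1 higher in the ergosterol liver and 3 lower in the stigmasterol liver. Of all tested genes 8.67% were higher and 4.3% lower on high sitosterol, 6.05% higher on ergosterol and 7.79% lower on stigmasterol. The median log2 ratio of the hepatocyte markers in the stigmasterol liver was −0.73. That median rests on the scaling, since library totals move this comparison by 0.69 over all genes and the summed hepatocyte TPM was 58509 there against 55850.2 on low sitosterol. In that liver stellate cell markers were higher in 5 of 7 and bile duct markers in 5 of 5, where 21.7% of all tested genes were. The bile duct marker Cldn4 (785 against 1 count) passed the 1 CPM filter only through the stigmasterol liver, in which it is high. The part of a change in cell makeup in the Lipc value was not tested. Within a library the TPM of Lpl was 0.0371 times that of Lipc on low sitosterol, 0.752 times on high sitosterol, 0.194 times on ergosterol and 3.19 times on stigmasterol. The stigmasterol liver was thus the only liver of the 4 with more Lpl than Lipc transcript by TPM. This ratio does not depend on the scaling between libraries, but it does depend on the transcript lengths that TPM divides by. By counts Lpl was 0.113, 2.1, 0.656 and 9.13 times Lipc, so that it was above Lipc on high sitosterol as well.

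The inhibitors of lipoprotein lipase parted. Angptl8, which hepatocytes make after feeding, stood at 319, 122, 44.3 and 49.5 TPM, from 10411, 3727, 1194 and 1419 counts. It was first of the 9 genes in the low sitosterol liver. The ergosterol and stigmasterol livers lay together and lowest, with a log2 ratio between them of 0.36 that turned to −0.17 on library totals. Angptl4, which responds to fatty acids and fasting, stood at 94.0, 71.8, 109.9 and 90.2 TPM, and its scaled CPM of 192, 122, 171 and 96.3 varied 1.99-fold. Angptl8 was thus 3.39 times Angptl4 by TPM on low sitosterol and 1.70 times on high sitosterol, but 0.403 and 0.548 times on ergosterol and stigmasterol.

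**Figure D4:**
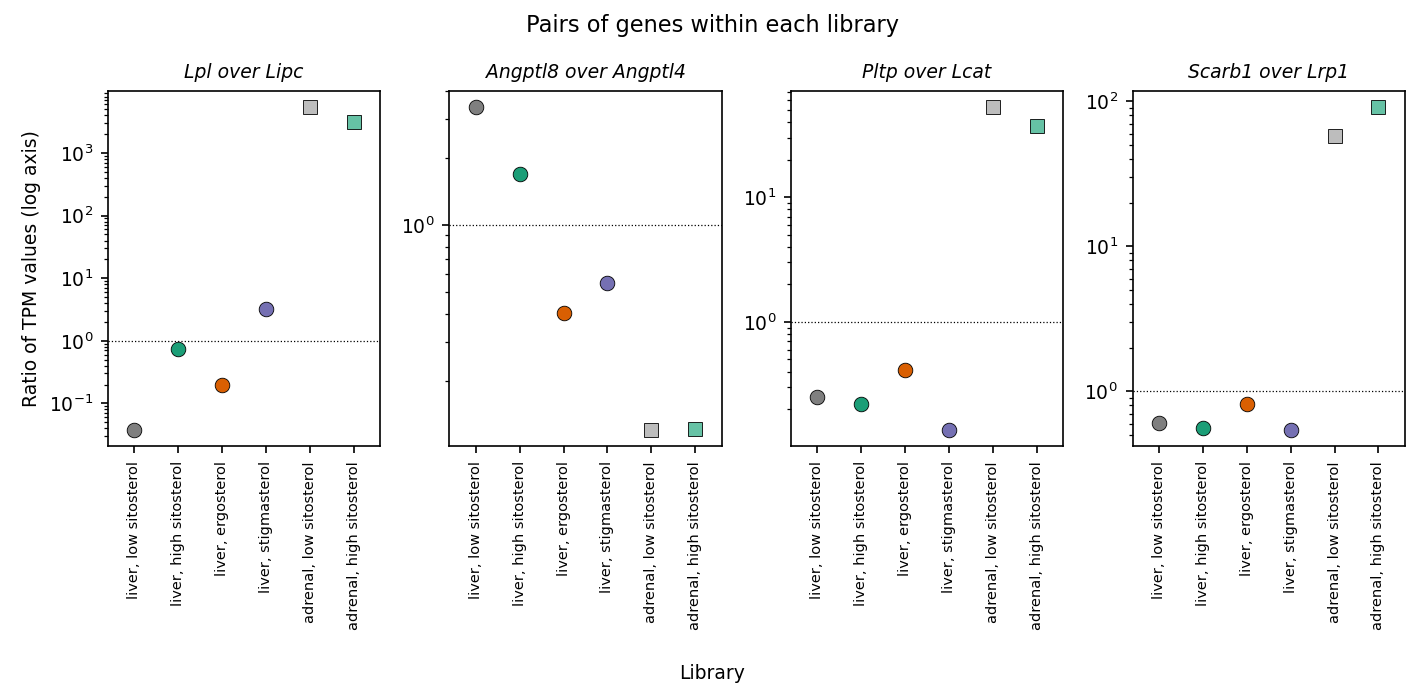
Ratio of TPM between 2 genes of the same library, on a log axis, for Lpl to Lipc, Angptl8 to Angptl4, Pltp to Lcat and Scarb1 to Lrp1. The Lpl to Lipc ratio runs from 0.0371 to 3.19 in the livers. Also in the livers, the Angptl8 to Angptl4 ratio lies above 1 on both sitosterol diets and below 1 on ergosterol and stigmasterol. In the adrenals the Angptl8 to Angptl4 ratio is 0.12 on low and 0.121 on high sitosterol.

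Of the HDL remodelling genes, Lcat varied less than Pltp. Lcat, which esterifies cholesterol on HDL, had 12664, 15142, 17853 and 14040 counts in the livers, or 309, 327, 401 and 206 scaled CPM. Pltp had 4075, 4227, 9694 and 2537 counts, or 99.5, 91.3, 218 and 37.2 scaled CPM. The sitosterol livers lay together for Pltp, the ergosterol liver above them and the stigmasterol liver below. By TPM Pltp was 0.25, 0.219, 0.409 and 0.135 times Lcat.

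Scarb1, the HDL receptor, varied 1.57-fold over the livers. It stood at 188, 145, 229 and 155 scaled CPM, with none of the 3 comparisons against low sitosterol past 2-fold. Lrp1, the remnant receptor, stood at 375, 307, 569.9 and 399.9 scaled CPM, and its ratio on ergosterol against low sitosterol was 0.61 (1.52-fold). On library totals it stood at 312, 293, 531 and 539 CPM and by TPM at 134, 130.1, 163 and 238, so that the ergosterol liver was highest by TMM-scaled counts and the stigmasterol liver on both other scales. Vldlr, a receptor that takes up triglyceride-rich particles and is low in healthy liver, had 41, 22, 242 and 166 counts (Poisson 95% intervals 29.4 to 55.6, 13.8 to 33.3, 212 to 274 and 142 to 193). Both sitosterol livers were under 1 CPM for Vldlr on library totals, at 0.835 and 0.454, and the gene entered the liver test only through the ergosterol (5.06) and stigmasterol (3.28) livers. Its calls on ergosterol and stigmasterol against low sitosterol were lost on the log2(TPM + 1) scale (0.93 and 0.63), where values this low are damped, and so were those against high sitosterol given below (0.93 and 0.62).

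TPM divides by transcript length, so counts and TPM of a gene together imply a length. For Lrp1, ergosterol against stigmasterol was at 0.51 with TMM factors, −0.02 on library totals and −0.55 on the log2(TPM + 0.1) scale, so both the scaling and the length enter that difference. The length implied by the 2 tables was 2452, 2497, 4033 and 2790 bases for Lrp1 in liver and 7482 and 7145 in adrenal, where annotated Lrp1 transcripts run from 292 to 14888 bases. The scale was set on 300 to 471 genes with a single transcript, over which the same figure spread from 0.974 to 1.07 times the expected (5% to 95%). The Lrp1 livers thus lay on shorter models than the adrenals, and the ergosterol liver on longer models than the other livers. Vldlr implied 8172, 4432, 5627 and 5655 bases in liver, the first 2 from 41 and 22 counts, and 5589 and 4950 in adrenal. Lpl implied 4101 to 4108 bases in every liver and 3310 and 3354 in the adrenals, and Lcat 1201 to 1202 in all libraries. Which transcripts were present was not tested, since the tables hold genes only.

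**Figure D5:**
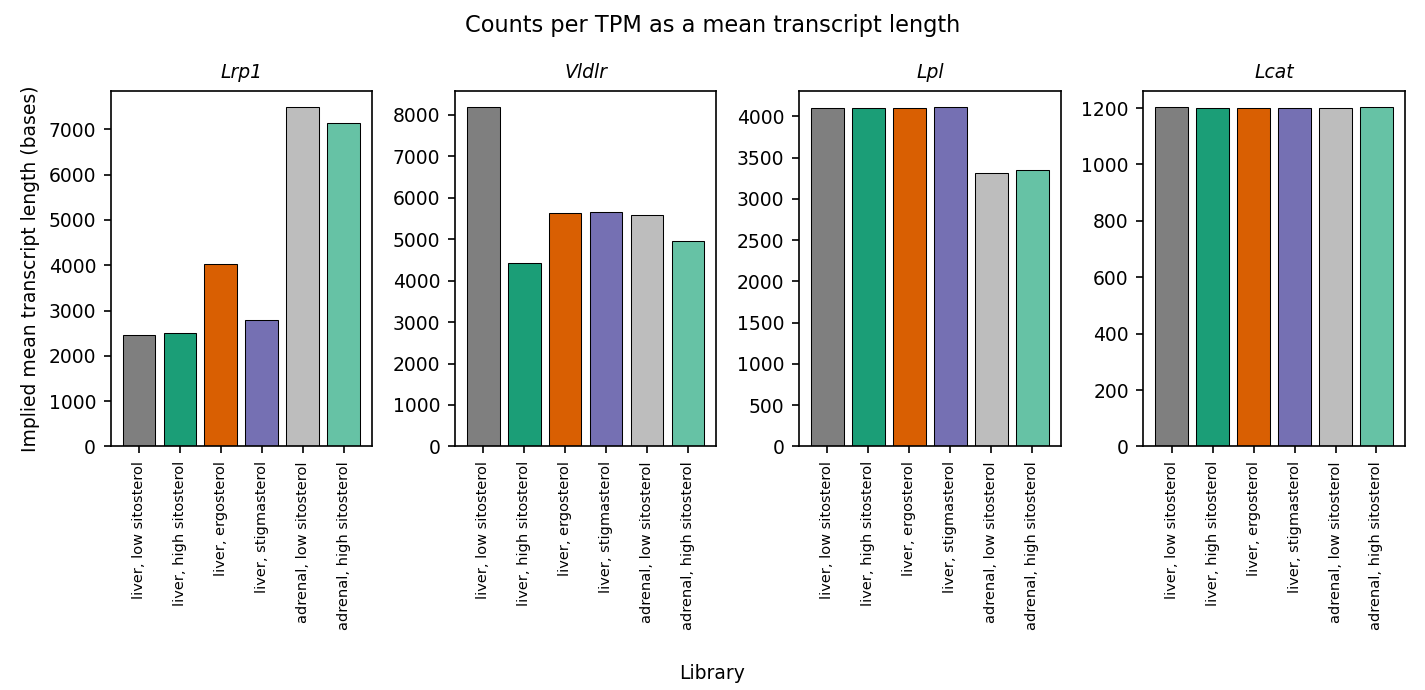
Mean transcript length implied by estimated counts and TPM for Lrp1, Vldlr, Lpl and Lcat in each library, as bars from 0 in bases. Lrp1 lies at 2452 to 4033 bases in liver and at 7145 and 7482 in adrenal, while Lcat lies at 1201 to 1202 in all 6 libraries.

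The sterols were also set against each other. Stigmasterol is sitosterol with 1 more double bond, placed in the side chain, and ergosterol has a methyl where sitosterol has an ethyl group on that chain, and further double bonds. With no doses known from the sources used here, these are values side by side. Vldlr passed the 1 CPM filter only through the ergosterol and stigmasterol livers, in which it is high, so its calls below carry that limit. Between stigmasterol and high sitosterol, Vldlr was 5.05-fold higher (2.34, 1.71 to 3.07) and Angptl8 3.87-fold (−1.95), Lipc 2.55-fold (−1.35) and Pltp 2.45-fold lower (−1.29), where 16.5% of all genes were called higher and 5.59% lower. On library totals the Lipc and Pltp calls were lost (−0.85 and −0.80), Lpl passed (1.27, against 0.77) and 91.8% of all calls were higher instead of 74.7%.

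Between ergosterol and high sitosterol, Vldlr was 11.2-fold (3.49) and Pltp 2.38-fold higher (1.25), and Angptl8 was 3.0-fold lower (−1.59), where 6.18% and 8.96% of all genes were called. Lpl lay just short of 2-fold lower (−0.99) and passed with library totals (−1.03). Of all calls 40.8% were higher, or 52.4% on the log2(TPM + 0.1) scale. Between ergosterol and stigmasterol, Pltp was 5.85-fold (2.55), Lipc 4.09-fold (2.03) and Vldlr 2.23-fold higher (1.15), and Lpl was 3.40-fold lower (−1.77), where 7.09% and 19.4% were called. The Vldlr call was lost on library totals (0.62), and 9.59% of all calls were then higher instead of 26.8%. Lrp1 (0.51) turned to −0.55 on the log2(TPM + 0.1) scale. Angptl4 and Scarb1 passed in none of these 3 comparisons under that rule.

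In the adrenal gland, high against low sitosterol, Lpl stood lower. It had 34076 counts (825 scaled CPM, 385 TPM) on low and 13327 (276 scaled CPM, 124 TPM) on high sitosterol, a 2.99-fold difference (−1.58, −1.61 to −1.55). It was the only 1 of the 7 tested genes called, with 0 higher, where 2.31% of 14224 genes were called lower and 3.83% higher. The median was −0.58 over the 7 genes and 0.00 over all. Angptl4 had 2911 and 2111 counts (−0.69), Angptl8 134 and 99 (−0.66, −1.05 to −0.28), Vldlr 2336 and 1825 (−0.58) and Lrp1 10277 and 9688 (−0.31). Scarb1, through which adrenal cells take up cholesterol for steroid synthesis, had 181060 and 285255 counts and was 1.35-fold higher (0.43, 0.42 to 0.44). Pltp was at 0.02. Lipc and Lcat were below 1 CPM in both adrenals and were not tested.

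Adipocyte markers moved with Lpl in the adrenals. All 8 were present, at 6807 summed TPM on low and 2795 on high sitosterol. Of these, 7 of 8 were called lower with a median of −1.27, where 2.31% of all tested genes were. Adipoq was at −1.30, Cidec at −1.54 and the brown fat gene Ucp1 at −2.20, while leptin (Lep) was at −0.17. Lpl came to 5.66% and 4.44% of the adipocyte sum in the 2 glands, and Angptl4, also made by fat, to 0.878% and 1.30%, both ratios taken after the values were seen. Macrophage markers summed to 410.0 and 544 TPM, with 4 of 9 tested called higher and 5 not past the call. Neutrophil markers were higher in 4 of 4, where 3.83% of all tested genes were. The 4 macrophage markers were Marco (124 against 3 counts), Cd5l (113 against 12), Vsig4 (91 against 5) and Timd4 (70 against 11). Each of them, and the neutrophil marker Retnlg (79 against 10), passed the 1 CPM filter only through the high sitosterol adrenal, in which it is high. The 8 lipid-associated macrophage markers summed to 641 and 753 TPM. Of these, 1 was called higher, Trem2 (1.0), and 2 lower, Gpnmb (−1.24) and Mmp12 (−1.43), with a median of −0.09. Of all tested genes 3.83% were called higher and 2.31% lower. Adrenal cortex markers summed to 50310 and 51502 TPM. The part of fat tissue around or in the gland in the Lpl value was not tested.

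The tissues were then compared on the log2(TPM + 0.1) scale, on which 69.4% of 15125 genes were called higher in adrenal on both diets and 6.94% lower. Scarb1 was 36.1-fold and 53.2-fold higher in adrenal on low and high sitosterol and held first place among the 9 genes there, at the 99.9 percentile of all genes. Vldlr was 75.8-fold and 54.4-fold higher, at 15.6 and 11.5 TPM against 0.108 and 0.114 in the matching livers. Lpl was 69.6-fold higher on low sitosterol but 1.87-fold on high sitosterol. By counts scaled over all 6 libraries, Lpl was 13.9-fold higher on low and 2.26-fold lower on high sitosterol, so the second direction depends on the scale. The same counts put Scarb1 9.97-fold and 16.8-fold and Vldlr 24.0-fold and 32.5-fold higher.

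Both liver-secreted enzymes were near absent from adrenal. Lipc had 3 and 2 counts (Poisson 95% intervals 0.619 to 8.77 and 0.242 to 7.22), and by scaled counts was 5879-fold (2482 to 35186) and 5283-fold (1985 to 59256) lower than in liver. The adrenals held hepatocyte markers at a median of 0.0468% and 0.0509% of the low sitosterol liver, and at that share liver RNA would give 0.0686 and 0.0746 TPM of Lipc, where 0.0700 and 0.0389 were measured. Lcat had 21 and 37 counts, 0.655 and 0.962 TPM, against 0.106 and 0.115 at that share. Angptl8 was 43.9-fold and 27.0-fold lower by TPM, with 7.17 and 4.42 TPM measured against 0.149 and 0.162 at that share. Lrp1 was 2.61-fold and 3.07-fold lower. Pltp and Angptl4 lay within 2-fold of liver by TPM (−0.69 and −0.82, −0.65 and −0.98) and were 6.13-fold to 6.74-fold lower by scaled counts.

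The other lists are read beside the shares of all tested genes called, given above: in liver 8.67% higher and 4.3% lower on high sitosterol, 6.05% and 5.81% on ergosterol, and 21.7% and 7.79% on stigmasterol, and in adrenal 3.83% and 2.31%. Of 14 cofactors and further inhibitors of the lipases, 0 were called on high sitosterol (median −0.21) and 0 on ergosterol (0.08) against low sitosterol in liver. On stigmasterol 1 was higher, the Lpl activator Apoc2 (1.22), and 3 were lower, among them endothelial lipase Lipg (−1.75) and the Lpl inhibitor Apoc3 (−1.37), with a median of −0.56 that changes sign on library totals. Gpihbp1, which carries Lpl to the capillary lumen, was at −0.41, −0.29 and 0.38, and the lipase maturation factor Lmf1 at −0.06, −0.08 and −0.92. In adrenal 1 of 10 was lower, the proprotein convertase Pcsk6 (−1.26).

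Among 11 HDL genes, the lipid exporter Abcg1 (1.60) and the scavenger receptor Cd36 (1.35) were higher on high sitosterol and 0 lower (median −0.21). On ergosterol Cd36 (2.0) alone was higher and 0 lower (0.18). On stigmasterol Abcg1 (2.18) and Cd36 (1.94) were higher, and Pon1 (−2.14) and Apoa2 (−1.70), proteins of HDL particles, were lower (−0.55). In adrenal 1 of 10 was higher, the Scarb1 adaptor Pdzk1 (1.76, on 53 against 13 counts), and 1 lower, Pon1 (−1.11, on 30 against 56), with a median of −0.11. Each of these passed the 1 CPM filter only through the adrenal in which it is high.

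Of 21 other receptors and trafficking genes, 18 were tested in liver. On high sitosterol 1 was higher, the macrophage scavenger receptor Msr1 (1.52), and 1 lower, Lrp2 (−3.87, on 6 against 84 counts), with a median of 0.19. Lrp2 passed the 1 CPM filter only through the low sitosterol and ergosterol livers, in which it is high. Its call on stigmasterol below carries the same limit. On ergosterol 0 passed (0.35). On stigmasterol 6 of 18 were higher and 2 lower (0.54), where 21.7% and 7.79% of all genes were. The 6 were the sorting receptors Sorl1 (1.77) and Sort1 (1.36), the ubiquitin ligase Mylip (1.34), the proteoglycan receptor Sdc1 (1.33), Lrp12 (1.20) and Msr1 (1.15). The lower ones included Lrp2 (−2.92, on 18 against 84 counts). In adrenal 4 of 19 were higher, Stab2 (1.81), Msr1 (1.75), Olr1 (1.71) and Sdc1 (1.51), and 0 lower (0.03). Stab2 (100 against 24 counts) and Olr1 (51 against 13) passed the 1 CPM filter only through the high sitosterol adrenal, in which they are high.

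Among 11 nuclear receptors and lipid regulators, few passed. The fatty acid receptor Ppara was higher on ergosterol (1.98), at 67.0 against 17.0 scaled CPM, and the carbohydrate-sensing factor Mlxipl was lower on stigmasterol (−1.69), at 51.7 against 166. The oxysterol receptor Nr1h3, a known activator of Lpl and Pltp, was at −0.06, −0.05 and −0.77. On high sitosterol 0 of 11 passed (median −0.06), and on ergosterol and stigmasterol the medians were 0.41 and −0.13. In adrenal 1 was lower, the bile acid receptor Nr1h4 (−1.08), with a median of −0.22.

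The genes most like each member over the 4 livers were found by the distance between log2 scaled CPM patterns centred on their mean, among 8609 genes. With 4 points and many genes, close matches can arise without any link, so these are descriptions. Nearest to Lpl were Slc16a5 (distance 0.29), Clec7a (0.92) and Abcg5 (0.94), with Slc16a5 at 2.03, 18.4, 11.6 and 30.4 scaled CPM. Nearest to Lipc were Slc16a11 (0.07), Slc22a30 (0.18) and Rgn (0.20). Angptl8 was followed by Klf10 (0.50), Pfkfb3 (0.68) and Aacs (0.82), with Klf10 at 129, 35.7, 14.2 and 14.8. Pltp was followed by Pigr (0.33), Hamp2 (0.35) and Slc17a8 (0.39), and Vldlr by Slc25a25 (0.55), Mme (0.70) and Rnf125 (0.79).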

How the data were processed

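RNA from 4 livers and 2 adrenal glands, 1 mouse per group, was sequenced after Qiagen RNeasy extraction and TruSeq RNA Library Prep Kit v2 preparation, per the labels. The authors deposited estimated counts and TPM per gene symbol. Tools named without a role in the submitters' processing notes are kallisto 0.43.1, HISAT2 2.0.5 and Trimmomatic 0.33, with build mm10. Estimated counts were rounded to whole numbers, and 1 row naming no gene, with 0 counts, was left out. Genes reaching 1 CPM in any library of a tissue were tested (13378 in liver, 14224 in adrenal). Scaling used TMM factors within tissue (edgeR 4.0.16, R 4.3.3). Log2 ratios carry a prior count of 0.5 and exact conditional binomial 95% intervals, which cover counting error only. With 1 library per group there is no p-value. Ratios and intervals were tested on simulated data. The 9 members and the gene lists were chosen with earlier results of these data known. Named genes were the members, up to 4 called genes of each list with the largest ratios or those a count of 5 or fewer needs, and the 3 nearest patterns of members varying 2-fold in liver. Some genes that this rule names are left out of the text. Names such as Nr1h3, Gpihbp1 and Lmf1 and the marker examples were chosen after their values were seen. Alternatives were other scalings, filters, prior counts, pseudocounts and a 1.5-fold rule.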

Additional observations from a re-analysis of the deposited data

Results flagged for a closer look

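High against low sitosterol, 2 of the 9 genes went opposite ways in the tissues with both counting intervals excluding equality, and the difference was not tested since each group holds 1 library. The share of all genes that do so is not given here, so the count has no background to be read against. At these depths the intervals exclude equality for small ratios too. Lpl was higher in liver (3.34) and lower in adrenal (−1.58), a gap of 4.92 on the log2 scale. Scarb1 was lower in liver (−0.37) and higher in adrenal (0.43), a gap of −0.80, with neither past 2-fold. Pltp also had opposite signs (−0.13 and 0.02), but its adrenal interval spanned equality (−0.08 to 0.12). The adrenal libraries go against their male label, and adipocyte markers were lower in the high sitosterol adrenal with a median of −1.27, so tissue, sex and fat content cannot be told apart here.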

How the results depend on the processing

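No paired analysis was possible because each group holds 1 library, and for the same reason no library could be left out. Of 580 ratios of the 9 genes recomputed under the alternatives, 357 lay inside the counting interval, 221 lay outside it and 2 that were called changed sign: Vldlr on high against low sitosterol in liver, at 0.04 on log2(TPM + 0.1) and 0.01 on log2(TPM + 1). Of 34 ratios against low sitosterol, 6 changed sign under at least 1 of 5 scalings: those of Pltp and Vldlr on high sitosterol, Lipc and Angptl4 on ergosterol, and Lcat and Scarb1 on stigmasterol. The Lpl and Angptl8 calls in the 3 liver comparisons against low sitosterol were kept under every scaling. Counts of called genes moved as follows. On high against low sitosterol in liver, the 2 lower became 1 on library totals, on both TPM scales and with 1 CPM required in every library, and 4 at 1.5-fold. On stigmasterol against low sitosterol, the 2 higher became 1 on log2(TPM + 1) and with 1 CPM in every library, and the 3 lower became 5 at 1.5-fold and 2 on library totals and both TPM scales. On ergosterol against low sitosterol, the 3 higher became 2 on log2(TPM + 1) and with 1 CPM in every library. Angptl4 also passed as lower on stigmasterol with DESeq2 and with upper-quartile factors, and Lrp1 as higher on ergosterol at 1.5-fold. In adrenal the 1 lower became 3 at 1.5-fold. On stigmasterol against high sitosterol, the 1 higher became 2 on library totals, log2(TPM + 0.1) and at 1.5-fold and 0 with 1 CPM in every library, and the 3 lower became 1 on library totals and both TPM scales. On ergosterol against high sitosterol, the 1 lower became 2 on library totals, upper-quartile factors and at 1.5-fold, and the 2 higher became 1 with 1 CPM in every library, 3 on log2(TPM + 0.1) and 5 at 1.5-fold. On ergosterol against stigmasterol, the 3 higher became 5 at 1.5-fold and 2 on library totals and both TPM scales. Lcat also passed as lower on stigmasterol against high sitosterol at 1.5-fold, and as higher on ergosterol against stigmasterol with DESeq2 factors. Between tissues on high sitosterol, the 4 lower in adrenal became 7 by counts scaled over 6 libraries. The cause was not tested, apart from the smaller number of genes that a stricter filter leaves. Depth limits Vldlr in the sitosterol livers (22 and 41 counts) and Lipc and Lcat in adrenal (2 to 37 counts).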
